A study of Mus musculus with 20 samples.

Results

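The keratin gene clusters of the mouse lie on chromosome 11, with the type I keratins and the keratin-associated proteins, and on chromosome 15, with the type II keratins. Promoter windows were taken by position on build GRCm39: those starting between 99120000 and 100080000 on chromosome 11, or between 101200000 and 102040000 on chromosome 15. This gave 143 of the 54034 windows, each of 3500 bp, with 87 in the type I cluster and 56 in the type II cluster. Of the latter, 3 started between 101.90 and 101.95 Mb, the interval given for Krt8 and Krt18, and are called the Krt8/Krt18 windows. The levels come from bisulfite sequencing of DNA of single blastocysts, in which each value is the percent methylation of a window in an embryo. The 10 control blastocysts were labelled only as controls, and the 10 others were labelled Padi6-mutant and derived from oocytes carrying the Padi6P620A allele. PADI6 is an oocyte protein that the egg passes on to the embryo, and the comparison asks whether methylation of the blastocyst differs when the egg carried the mutation. The labels give no strain, litter, sex or batch, and embryos may share a mother; each was counted as a replicate.

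Keratins are the intermediate filament proteins of epithelial cells, and each filament pairs a type I with a type II protein. Krt8 (type II) and Krt18 (type I) form the pair of simple epithelia and are among the first keratins made in the embryo, in the trophectoderm, the outer layer of the blastocyst. Krt5 and Krt14 mark the basal layer of stratified epithelia, Krt1 and Krt10 its upper layers, and the hair keratins and keratin-associated proteins build the hair shaft long after the blastocyst stage. Krt18 is the type I gene that lies among the type II genes, next to Krt8. DNA methylation in mammals falls mostly on cytosines followed by guanine (CpG), and is low over much of the genome at the blastocyst stage.

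The windows carry positions and no gene names, and the RefSeq gene table used here is on another build, GRCm38.p6, so single windows were not tied to genes. In that table the type I cluster holds 27 keratin and 23 keratin-associated genes, with 26 other genes between Krt222 and Krt42, 15 of them protein coding. The type II cluster holds 27 keratin genes from Krt80 to Krt18, with 13 other genes in between, 1 of them protein coding. Some of the windows, on both chromosomes, can therefore belong to genes that are not keratins. These counts leave out genes beyond the first and last keratin, and windows at the edges of the intervals can lie outside the keratin genes. Krt8 and Krt18 stand next to each other at the far end of the type II cluster. Expression was not analysed here, so whether Krt8 and Krt18 were on and the other genes off in these embryos was not measured.

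The promoter sequences show how few CpG sites most of these genes offer close to their start. They are much shorter than the 3500 bp windows, so the counts are not the number of sites behind a methylation level. The 250 bases before the start of 7 genes are printed 5′ to 3′ on the strand of the gene, from RefSeq on GRCm38.p6, with each CpG in capitals. They pair the simple epithelial genes Krt8, Krt18 and Krt7 with the basal epidermal genes Krt5 and Krt14, a hair keratin (Krt31) and a keratin-associated protein gene of the hair shaft (Krtap1-4).
Krt8: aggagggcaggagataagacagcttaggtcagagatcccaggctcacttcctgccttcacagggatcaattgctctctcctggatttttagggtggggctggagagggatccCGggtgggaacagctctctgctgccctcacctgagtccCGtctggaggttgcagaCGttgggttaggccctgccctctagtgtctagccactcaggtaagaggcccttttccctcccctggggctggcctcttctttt
Krt18: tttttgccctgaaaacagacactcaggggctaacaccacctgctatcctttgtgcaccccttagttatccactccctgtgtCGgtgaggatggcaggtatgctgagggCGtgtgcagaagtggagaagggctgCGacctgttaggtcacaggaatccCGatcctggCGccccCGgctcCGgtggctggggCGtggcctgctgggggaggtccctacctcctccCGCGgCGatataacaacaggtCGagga
Krt7: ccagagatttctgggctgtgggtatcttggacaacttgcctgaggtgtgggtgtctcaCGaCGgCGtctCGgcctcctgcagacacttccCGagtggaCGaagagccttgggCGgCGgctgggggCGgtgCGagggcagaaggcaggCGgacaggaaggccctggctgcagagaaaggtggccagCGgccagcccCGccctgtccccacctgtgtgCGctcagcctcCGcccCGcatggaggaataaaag
Krt5: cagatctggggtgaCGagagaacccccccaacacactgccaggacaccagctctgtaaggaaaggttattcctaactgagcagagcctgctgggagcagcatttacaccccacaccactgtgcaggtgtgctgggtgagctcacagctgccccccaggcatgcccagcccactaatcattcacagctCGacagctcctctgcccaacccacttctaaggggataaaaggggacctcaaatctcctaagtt
Krt14: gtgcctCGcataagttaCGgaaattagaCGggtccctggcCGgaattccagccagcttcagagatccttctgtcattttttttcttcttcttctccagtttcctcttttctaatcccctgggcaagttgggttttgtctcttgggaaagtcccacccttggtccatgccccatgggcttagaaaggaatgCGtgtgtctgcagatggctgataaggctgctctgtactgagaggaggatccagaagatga
Krt31: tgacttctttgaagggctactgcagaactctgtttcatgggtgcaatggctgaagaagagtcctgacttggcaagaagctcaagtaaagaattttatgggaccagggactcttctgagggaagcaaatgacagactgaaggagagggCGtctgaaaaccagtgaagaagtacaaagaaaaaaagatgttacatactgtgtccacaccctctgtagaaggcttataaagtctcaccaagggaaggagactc
Krtap1-4: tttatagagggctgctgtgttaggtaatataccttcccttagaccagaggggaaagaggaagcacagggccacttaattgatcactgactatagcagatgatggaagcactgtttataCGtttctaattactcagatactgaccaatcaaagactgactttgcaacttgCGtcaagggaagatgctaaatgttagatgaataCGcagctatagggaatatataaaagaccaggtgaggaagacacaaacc

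In these stretches Krt18 had 12 CpG sites and Krt7 had 16, whereas Krt8 had 3, Krt5 had 2, Krt14 had 5, Krt31 had 1 and Krtap1-4 had 3. The RefSeq promoter table runs from 250 bases before to 50 after the start and held 57 keratin and keratin-associated genes of the clusters. Over these 300 bases Krt7 had 21 CpG sites and Krt18 had 17, and the other genes except Krt8 and Krt18 had a median of 3 (range 0 to 21, n = 55 genes). Krt8 had 6, close to the median of 7 over all 32851 promoters in the table. The pair active in trophectoderm is therefore not uniform in CpG content over these bases. Krt20 and Krt23, the other genes in the list used for simple epithelial keratins, also had 6. For each keratin gene a single promoter was used, that with the lowest start position, whereas all promoters of the table entered the median of 7. The keratin-associated genes were the poorest in CpG, with a median of 2 and no CpG at all in 8 of 21. The genes of the inner root sheath of the hair follicle ran from Krt71 and Krt73 with 4 each to Krt72 with 11. Their medians were 6 (type I) and 4 (type II), beside 6 in the simple epithelial list.

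The 6-base motif TATAAA, searched on both strands, was found in 39 of the 57 promoters (68.4%), against 13.6% of all promoters of the same length in the table. It was present in 20 of 21 keratin-associated promoters. In the list used for type I hair keratins, which counts Krt42, it was in 6 of 8 promoters. In the list used for epidermal type II keratins, which counts Krt75, it was in none of 6. Krt8 had a match, and Krt18 and Krt7 had none. A match says only that these letters occur in the window.

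**Figure D1:**
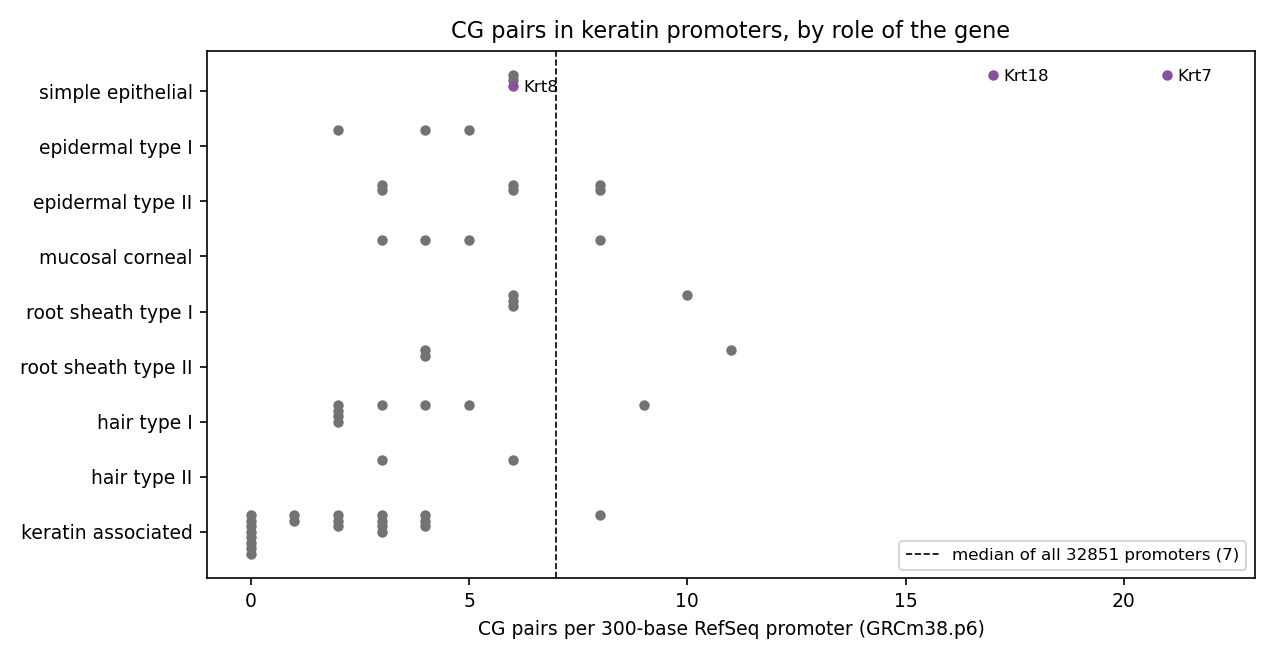
Number of CpG sites in 300 bases of RefSeq promoter sequence (horizontal axis) for keratin and keratin-associated genes, 1 point a gene, by role (vertical axis); the dashed line is the median of 7 over all promoters in the table, and Krt90, which is in no role list, is not drawn. Krt7 (21) and Krt18 (17) stand to the right, and the keratin-associated genes crowd at the low end.

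Coverage set what could be read. All 143 keratin windows had a value in at least 1 embryo, and 105 had values in at least 3 embryos of each group: 58 in the type I cluster, 44 in the type II cluster outside the interval, and the 3 Krt8/Krt18 windows. The other 38 (29 type I and 9 type II) were not tested. An embryo had a value in 18 to 128 keratin windows in the control group and in 5 to 120 in the mutant group. Over all windows, 6 control and 3 mutant embryos had more than 25000 values and are called densely covered, and the other 4 and 7 are called sparsely covered. The read depth behind a value is unknown, and values such as 0, 50 and 100% may rest on very few reads.

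In control embryos the keratin windows carried more methylation than a typical window of the data set. The median of the control means was 15.1% over the 105 keratin windows and 9.66% over all 37645 windows with values in at least 3 embryos of each group. Nearly unmethylated windows, with a control mean under 5%, made up 14.3% of the keratin windows (15 of 105) and 32.1% of all windows. Levels from 5% to 20% were found in 52.4% of keratin windows and 41.0% of all windows, and levels from 20% to 50% in 31.4% and 23.9%. Only 2 keratin windows (1.90%) reached a control mean of 50%, against 2.95% of all windows. The keratin windows thus sat mostly at low to middle levels, and these shares are descriptions with no test.

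The 2 tested windows above 50% both lay in the type II cluster. The window chr15:101440756-101444255 had the highest control mean of all tested keratin windows, 65.9% ± 21.1 (SD, n = 9), with a lowest value of 27.8%, a median of 64.3% and a highest of 100%. The window chr15:101217769-101221268 had 50.5% ± 25.8 (SD, n = 7), from 27.8% to 100% with a median of 37.5%. On chromosome 11, among windows with at least 5 control values, the highest control means were 47.1% ± 36.4 (SD, n = 7) at chr11:99565952-99569451 and 45.4% ± 25.1 (SD, n = 7) at chr11:99312586-99316085. The spread between control embryos in these windows was wide, covering much of the scale. At the low end of the windows with at least 5 control values, chr11:99121344-99124843, at the very start of the type I interval, read 0% in 8 of 9 control embryos and 3.39% in the remaining one. Of the tested windows with fewer control values, chr11:99488432-99491931 read 0% in 4 of 4 control embryos and chr11:99540563-99544062 in 3 of 3. The windows chr15:101388894-101392393, chr15:101481840-101485339 and chr15:101375177-101378676 had control means of 1.73% ± 3.41 (SD, n = 8), 2.16% ± 2.76 (SD, n = 7) and 3.10% ± 5.79 (SD, n = 8). The type II cluster thus held both the most methylated tested keratin window and some of the least methylated ones.

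The Krt8/Krt18 windows were at low levels in most embryos, though other keratin windows were as low. The window chr15:101909647-101913146 read 0% in 4 control embryos (1, 5, 9 and 10), and 1.92%, 3.70%, 6.25% and 16.7% in control embryos 2, 3, 4 and 8. In mutant embryos it read 8.33% in embryo 11, 0% in embryos 12 and 19, and 2.86% in embryo 14. Most values of both groups lay under 10%, and the groups overlapped. Control embryos averaged 3.57% ± 5.76 (SD, n = 8) and mutant embryos 2.80% ± 3.93 (SD, n = 4), a difference of -0.77 percentage points (SE 3.49; adjusted p = 0.959 in limma's test). This control mean ranked 8th from the lowest of the 105 keratin windows.

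The window chr15:101912418-101915917 overlaps the first one and was read in fewer embryos. In control embryos it read 0% in embryos 2, 5 and 10, 12.5% in embryo 3 and 50% in embryo 4. In mutant embryos it read 7.14% in embryo 11, 8.33% in embryo 12, 50% in embryo 14 and 0% in embryo 19. A single embryo at 50% stood far above the rest of its group in both genotypes. The difference was 3.87 percentage points (SE 13.8; adjusted p = 0.948 in limma's test), and its control mean of 12.5% ranked 42nd.

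The window chr15:101933615-101937114 read 0% in control embryos 1, 2, 3, 7 and 8, 3.64% in embryo 4, 9.23% in embryo 5, 28.6% in embryo 6 and 16.7% in embryo 10. In mutant embryos it read 5.26% in embryo 11, 2.47% in embryo 14, 0% in embryos 12, 15 and 20, and 100% in embryo 19, a sparsely covered embryo. The other mutant values all lay within the control range. The means were 6.46% ± 10.1 (SD, n = 9) and 17.96% ± 40.2 (SD, n = 6), and the difference of 11.5 percentage points (SE 13.2; adjusted p = 0.843 in limma's test) became -4.91 without mutant embryo 19. This control mean ranked 21st of the 105 keratin windows.

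**Figure D2:**
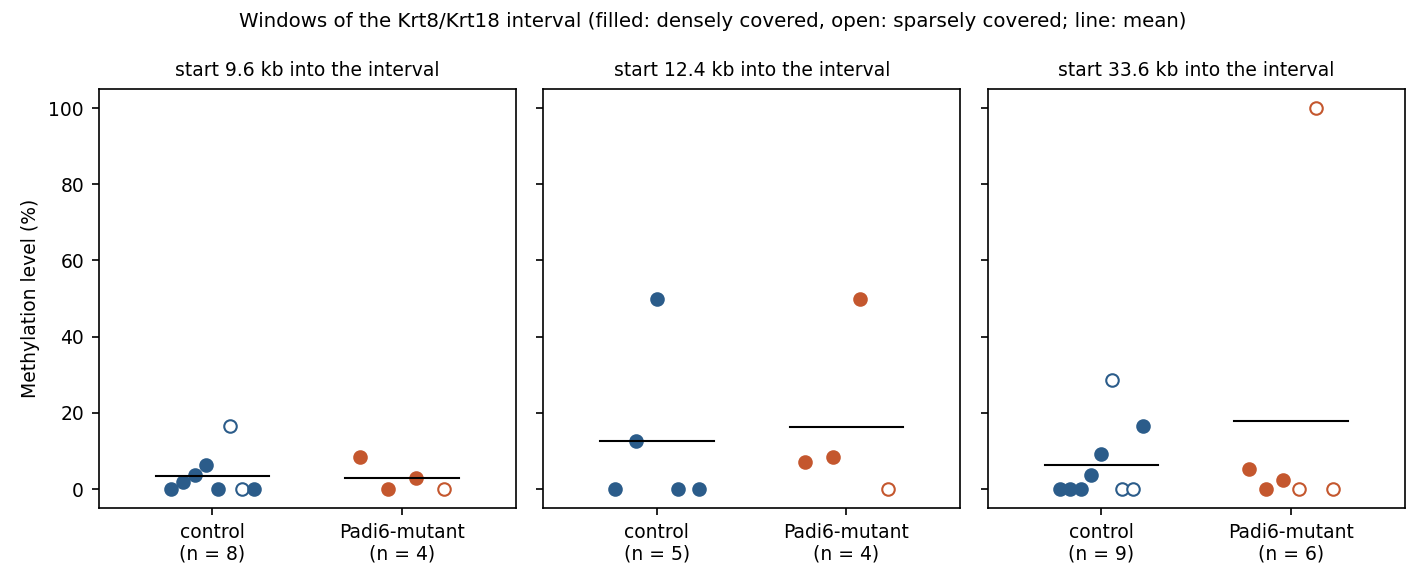
Percent methylation (vertical axis) of the Krt8/Krt18 windows in every embryo with a value, by genotype, 1 panel a window, in order of position; filled points are densely covered embryos, open points sparsely covered ones, and lines are group means. Most points lie near 0, with single embryos at 50% or 100%.

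To set the Krt8/Krt18 windows against the other keratin windows within the same embryo, values were first centred on the window (by the mean of both group means), then averaged over the windows of a set, and the mean level of that set was added. Levels made this way can fall slightly below 0. The other keratin windows are all the rest of both clusters, so they can include the simple epithelial gene Krt7 and genes that are not keratins. The Krt8/Krt18 windows were below the other keratin windows in 8 of 10 control embryos, by a mean of -9.88 ± 9.06 percentage points (SD; lowest -25.4, median -11.0, highest 5.79). Among the 6 densely covered control embryos, 5 showed this direction. In mutant embryos the difference was below 0 in 5 of the 6 embryos with a Krt8/Krt18 value, with a mean of -4.95 ± 7.35 (SD; lowest -14.5, median -5.30, highest 7.15). It was below 0 in all 3 densely covered mutant embryos. Mutant embryos 13, 16, 17 and 18 had no value in these windows. Control embryos 6, 7 and 9 and mutant embryos 15 and 20 had a value in only 1 of them. The lowest differences, in control embryo 7 and mutant embryo 15, each rest on a single value of 0%. The contrast rests on 3 windows, and with the interval narrowed by 10 kb on each side the mutant mean was 0.53. Whether it differs between genotypes was not tested.

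The level of the Krt8/Krt18 windows averaged 7.83% ± 8.92 (SD) over 10 control embryos and 9.49% ± 13.98 (SD) over 6 mutant embryos, a difference of 1.66 percentage points (SE 6.36). It was -2.02 without mutant embryo 19 and -0.15 without mutant embryo 14. No direction can be read from it.

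No keratin window differed between genotypes at an adjusted p under 0.05. In the limma fit over all windows with values in at least 3 embryos of each group, 0 of 105 keratin windows were called, against 14 of 37645 windows (0.0372%). The calls over all windows were lower in mutants for 11 (0.0292%) and higher for 3 (0.00797%). The smallest adjusted p of a keratin window was 0.655. At an unadjusted p under 0.05, 2 keratin windows were lower and 3 higher in mutants. The shares over all windows were 3.9% and 1.85%. With at least 7 embryos per group 0 of 3 keratin windows were called (0.185% of all windows), and in densely covered embryos 0 of 85 (0.0139% of all windows). By an exact rank-sum test 0 keratin windows were called, with 2 lower and 0 higher at an unadjusted p under 0.05, beside 3.44% and 1.2% of all windows. The mean was lower in mutants in 56 of 105 keratin windows (53.3%), beside 55.8% of all windows, and higher in 49, beside 43.5%. The median difference was -0.76 percentage points over the keratin windows and -1.07 over all windows. These counts stood near those of the whole data set.

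In the type I cluster 29 windows had a lower and 29 a higher mean in mutants (50% lower), with a median difference of -0.04 percentage points. In the type II cluster outside the interval 26 were lower and 18 higher (59.1% lower), with a median difference of -4.40. Both shares stood near the 55.8% over all windows. The difference between the clusters was not tested.

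Per embryo, the level of the type I windows was 15.7% ± 5.40 (SD, n = 10) in controls, from 8.22% to 26.6% with a median of 15.1%. In mutants it was 16.7% ± 11.7 (SD, n = 10), from 4.43% to 46.2% with a median of 13.9%. The groups overlapped over most of their range. The highest mutant value, in embryo 18, rests on 2 windows, and the difference of 1.00 percentage point (SE 4.08) was -2.59 without that embryo. In densely covered embryos it was -1.74.

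The type II windows outside the interval had a level of 20.2% ± 7.71 (SD, n = 10) in controls, from 10.4% to 37.5% with a median of 18.3%. In mutants it was 12.97% ± 9.02 (SD, n = 10), from -0.41% to 28.7% with a median of 11.2%. Of the 10 mutant embryos, 7 were below the control mean and 5 below the lowest control embryo. Of these 5, embryos 17, 20, 13 and 15 rest on 3, 5, 11 and 13 windows, and embryo 12 on 41. A similar share was low over all windows. There mutant embryos 11, 12, 13 and 16, at 11.1%, 7.16%, 11.4% and 11.8%, were below the lowest control embryo at 12.2%. The difference in the type II level was -7.22 percentage points (SE 3.75), beside plain mean levels over all windows of 15.4% in controls and 12.9% in mutants. It was -2.44 among densely covered embryos and -13.6 among sparsely covered ones, so its size moved with coverage, whose part in the result was not tested. The 3 densely covered mutant embryos took the same order over the keratin windows as over the whole data set. Densely covered control embryos did not all do so. Control embryo 1 was above control embryo 3 over all windows (15.6% and 15.1%) and below it over the keratin windows (15.6% and 16.5%). Mutant embryo 12 had a level of 7.94% over the keratin windows beside a mean of 7.16% over all windows. Mutant embryo 11 had 12.04% beside 11.1%, and mutant embryo 14 had 20.4% beside 17.6%. These measures differ: the keratin level is centred on the window over tested windows, and the other is a plain mean of all values. Sparsely covered embryos could lie further apart, with mutant embryo 13 at 6.34% beside 11.4% and mutant embryo 19 at 27.0% beside 15.3%.

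**Figure D3:**
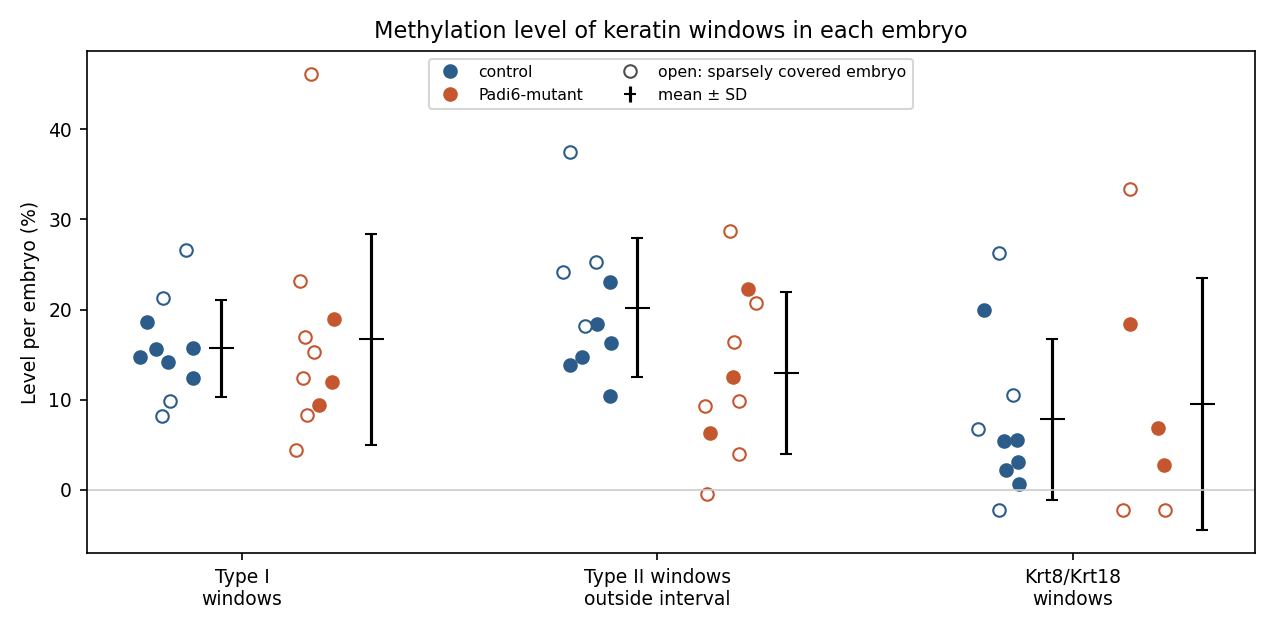
Level of the type I windows, the other type II windows and the Krt8/Krt18 windows (percent methylation, vertical axis) in each embryo, by genotype, with filled points for densely and open points for sparsely covered embryos, and bars for the group mean ± SD. The type II mutant embryos extend from -0.41% to 28.7%, and 5 of them lie below the lowest control embryo at 10.4%. Over all windows of the data set, mutant embryos 11, 12, 13 and 16 lay below the lowest control embryo.

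A grid of 1 Mb bins over the genome gave the clusters a test beside every other region. The bin from 99 to 100 Mb on chromosome 11, with 54 keratin windows among its 58, averaged 15.1% ± 5.13 (SD) over 10 control embryos and 15.7% ± 7.99 (SD) over 8 mutant embryos. This bin differed by 0.59 percentage points (SE 3.23; adjusted p = 0.975 in limma's test). The bin from 101 to 102 Mb on chromosome 15, with 46 keratin windows among its 58, had 18.8% ± 6.29 and 15.1% ± 7.78 (SD, n = 10 each). The difference was -3.73 percentage points (SE 3.19; adjusted p = 0.754 in limma's test). Of the 1043 bins tested, 1 was called (0.0959%) and 65.2% had a lower mean in mutants. Neither keratin bin was called, and both differences were close to their standard errors or below them. The sign for chromosome 11 was not stable: it was -1.69 with non-overlapping windows only.

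The widest differences in single windows lay in both directions and none passed the test. In chr11:99312586-99316085 the control embryos read from 25% to 83.3% with a median of 27.3%. Mutant embryos 11, 12, 14 and 16 read 16.7%, 22.5%, 20% and 0%. Every mutant value lay below every control value, the only tested keratin window of which this was true, beside 1.02% of all windows. In 0 keratin windows did every mutant value lie above every control value, beside 0.327% of all windows. The means were 45.4% ± 25.1 (SD, n = 7) and 14.8% ± 10.1 (SD, n = 4), a difference of -30.6 percentage points (SE 12.6; adjusted p = 0.815 in limma's test).

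The most methylated window, chr15:101440756-101444255, had a mutant mean of 35.9% ± 32.5 (SD, n = 7), a difference of -29.9 percentage points (SE 12.9; adjusted p = 0.813 in limma's test). The mutant values were 33.3% in embryos 11 and 14, 12.5% in embryo 12, 0% in embryo 13, 100% in embryo 16, 22.2% in embryo 18 and 50% in embryo 19. Of these 7 embryos, 6 were below the control mean, and embryos 11, 14, 16 and 19 lay within the control range. Restricted to densely covered embryos, the difference was -33.5.

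In chr15:101301815-101305314 control embryos read from 17.5% to 59.1% with a median of 35.4%. Mutant embryos 11, 13, 15 and 19 read 0% and embryo 14 read 53.1%. The difference was -25.3 percentage points (SE 11.5; adjusted p = 0.834 in limma's test). The value of embryo 14 is the single keratin value deposited as a number above 100; it was taken for a percent without its decimal point and divided by 1000, and leaving it out gave -36.0 (SE 8.10; adjusted p = 0.334). The window chr15:102005848-102009347 lies past the Krt8/Krt18 interval and so may lie beyond the last keratin gene of the cluster. It averaged 25.3% ± 26.6 (SD) over 8 control embryos and 0.909% ± 2.03 (SD) over 5 mutant embryos. Mutant embryos 11, 12, 13 and 14 read 0% there and embryo 18 read 4.55%, but 3 control embryos also read 0%. Its difference was -24.4 percentage points (SE 11.5; adjusted p = 0.834 in limma's test). The windows chr11:99565952-99569451 and chr11:99673026-99676525 differed by -29.7 (SE 21.8) and -29.2 (SE 25.3), with 3 mutant embryos each. In chr11:99673026-99676525 control embryos 1 and 2 read 100% and 75%. All other embryos of both groups with a value there read 0%, and both medians were 0%.

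Among windows with a higher mean in mutants, chr15:101421555-101425054 had the largest difference. Its control embryos read from 0% to 12.5% with a median of 0%, and mutant embryos 11, 14 and 15 read 38.9%, 100% and 0%. The means were 3.59% ± 4.90 (SD, n = 9) and 46.3% ± 50.4 (SD, n = 3), a difference of 42.7 percentage points (SE 14.5; adjusted p = 0.655 in limma's test). The mutant embryos thus disagreed over the whole scale. In chr11:99505173-99508672 mutant embryos 11 and 15 read 50%, embryo 14 read 37.5% and embryo 12 read 0%, beside a control range of 0% to 36.4% with a median of 0%. This difference was 25.9 percentage points (SE 10.4; adjusted p = 0.792 in limma's test). The windows chr11:99744134-99747633, chr11:99488432-99491931, chr11:99752302-99755801 and chr11:100026255-100029754 differed by 33.8, 25, 22.9 and 22.5 percentage points, with SEs of 16.99, 18.8, 11.4 and 14.7. Some of these rest on single embryos. In chr11:99488432-99491931 mutant embryo 11 read 75%, and embryos 12 and 13 read 0% like the controls. Leaving out each embryo gave 13.9 to 41.7 for chr11:99744134-99747633. It gave 2.70 to 36.0 for chr11:100026255-100029754, where mutant embryo 18 read 100%. The fifth window with an unadjusted p under 0.05, chr11:99383464-99386963, went from 3.23% to 18.1%; it falls outside the rule for named windows and was chosen after its values were seen.

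**Figure D4:**
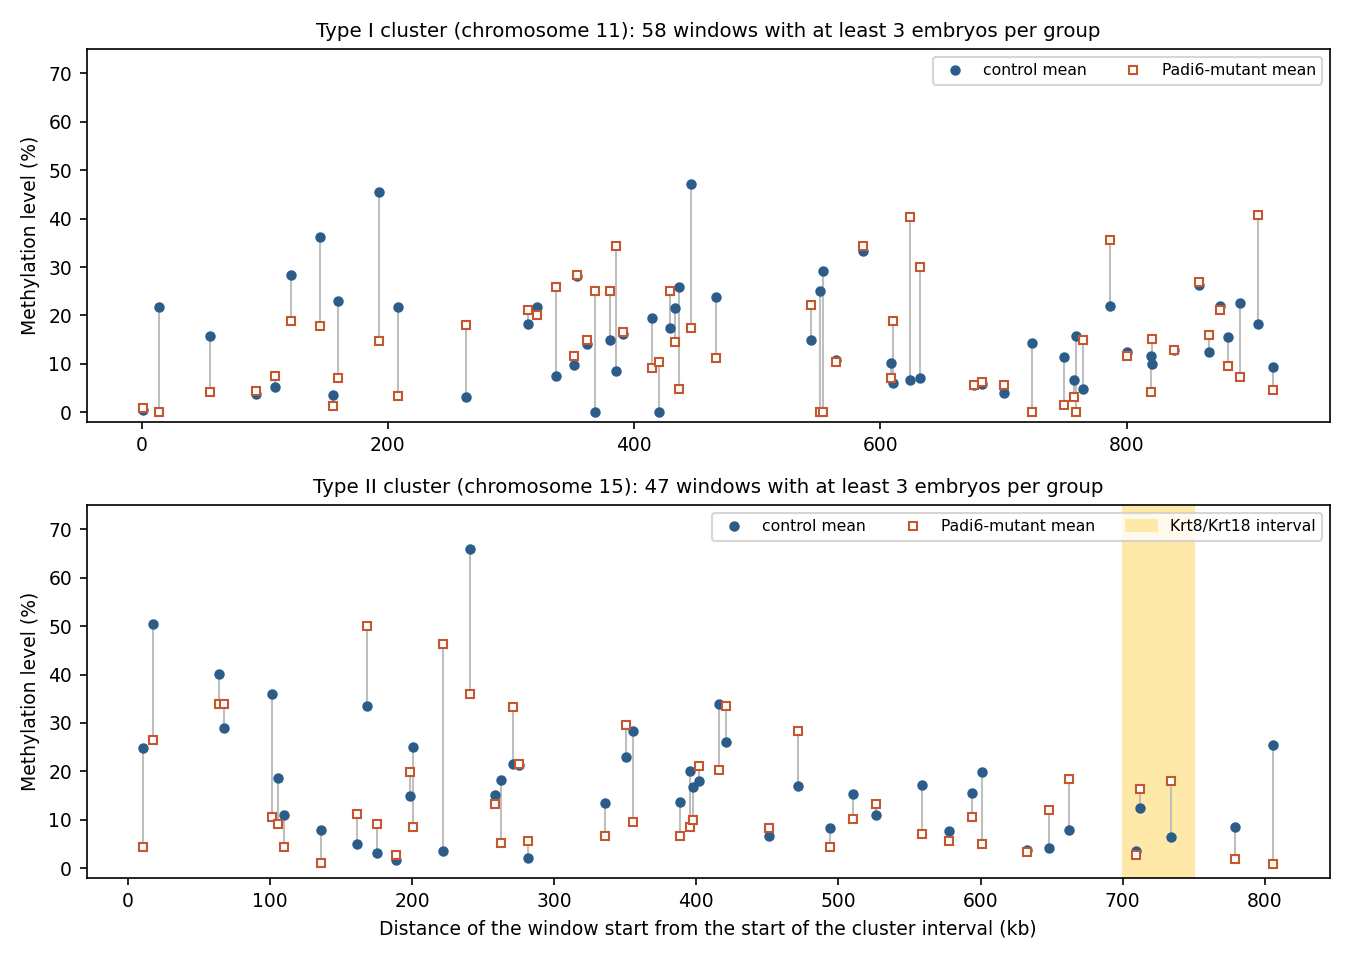
Control mean and mutant mean (percent methylation, vertical axis) of each tested keratin window along the type I and type II clusters (distance from the cluster's start in kb, horizontal axis), 1 pair of points a window, with the Krt8/Krt18 interval shaded. Both clusters hold windows with lower and windows with higher mutant means.

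Along the clusters some segments differed in one direction, some in the other, and others were mixed. In segments of 120 kb, chosen after the values were seen and given with no test, the type I segment from 120 to 240 kb had a mean of 26.4% in controls and 10.5% in mutants, lower in 6 of 6 windows. The same 6 windows were lower among densely covered embryos, at 22.7% and 6.76%. The next segment, from 240 to 360 kb, went the other way, from 14.8% to 20.9%, with 1 of 6 windows lower (0 of 6 in densely covered embryos). The type I segment from 600 to 720 kb had 6.46% in controls and 16.2% in mutants, with 2 of 7 windows lower (3 of 7 in densely covered embryos). Other segments showed almost no difference, such as 17.4% in both groups from 360 to 480 kb. In the type II cluster the first 120 kb had 30.0% and 17.6%, lower in 6 of 7 windows (5 of 7 in densely covered embryos). The next 120 kb had 11.9% and 18.6%, lower in 2 of 8, but in 4 of 8 in densely covered embryos. Over all windows, 55.8% had a lower mean in mutants, and each segment not named here held windows of both signs. Windows of a segment are read in the same few embryos and are not replicates.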

How the data were processed

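DNA methylation was measured by bisulfite sequencing in 20 single blastocysts. Reads were handled with Trim Galore 0.4.4 and Bismark 0.18.2 on GRCm39 (submitters' processing notes). The authors deposited percent methylation per promoter window and embryo; how calls were combined, and whether a coverage minimum applied, is not stated there or in the labels, and no read counts come with the values. After 46 repeated rows were dropped, 1594 of 491705 values (0.324%) exceeded 100. They were taken for percents deposited without their decimal point and divided by 1000, after which 0 exceeded 100; leaving them out was an alternative.

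Windows with values in at least 3 embryos of each group were compared with limma 3.58.1 (R 4.3.3) on the untransformed percent. Benjamini-Hochberg adjustment ran over all windows, with a threshold of 0.05. The fit was tried on the measured values shuffled between embryos within each window, with known increases added to some windows. The size of change that it can detect is not given here. The same limma test was run on mean deviations in 1 Mb bins. Levels per embryo were described with no test. The alternatives were other coverage filters, fit settings, bins, interval bounds, densely or sparsely covered embryos and leaving out each embryo. The text names the Krt8/Krt18 windows, the 6 largest differences in each direction among tested windows, and the 4 highest and 4 lowest control means among windows with at least 5 control values; of overlapping windows, the one with more values stands for both. Members and lists were chosen with earlier results of these data known.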

Additional observations from a re-analysis of the deposited data

Results flagged for a closer look

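Of 41 groups of values checked, 12 had a highest value whose gap to the next exceeded Dixon's 95% limit for the size of the group. Chance gives about 1 in 20 for groups fixed in advance. Many of these groups are windows named for large differences or extreme control means in the same data, so the 12 cannot be set against that share. Levels that fall on coarse steps with many zeros were not treated apart. For the level of the type I windows, mutant embryo 18 stood at 46.2%, with the next at 23.2%. The Krt8/Krt18 windows gave 4 of the 12: control embryo 8 at 16.7% in chr15:101909647-101913146, control embryo 4 and mutant embryo 14 at 50% in chr15:101912418-101915917, and mutant embryo 19 at 100% in chr15:101933615-101937114.

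In the other type II windows, mutant embryo 14 read 53.1% in chr15:101301815-101305314 where the others read 0%. Mutant embryo 18 read 4.55% in chr15:102005848-102009347 and 16.7% in chr15:101388894-101392393, again with the others at 0%. Control embryo 3 read 16.7% in chr15:101375177-101378676, with the next at 4.76%. In the type I windows, mutant embryo 20 read 100% in chr11:99744134-99747633, with the next at 25%. Control embryo 2 read 36.4% in chr11:99505173-99508672, with the next at 14.3%, and 3.39% in chr11:99121344-99124843, with the others at 0%.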

How the results depend on the processing

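The count of keratin windows called stayed at 0 under all 26 alternatives, but fewer could be tested under some: 3 with at least 7 embryos per group, 30 with at least 5 and 85 in densely covered embryos. Over all windows the 14 calls became 3 with at least 7 embryos per group, 0 with at least 5, 0 with a variance trend and robust fitting, 4 in densely covered embryos and 0 by the exact rank-sum test (727, 1705 and 1747 windows at an unadjusted p under 0.05 in the 3 cases with 0 calls). Leaving out each embryo gave 0 to 18, with 4 without control embryo 3, 5 without control embryo 4, 0 without mutant embryo 12, 9 without mutant embryo 11 and 6 without mutant embryo 14.

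The chromosome 11 bin, 0.59 percentage points, was -0.23 with 2 Mb bins, -1.69 with non-overlapping windows, 6.13 with the grid shifted by 0.5 Mb, and -1.88 to 1.57 leaving out each embryo. The shifted grid splits each cluster: 6.13 is for 99.5 to 100.5 Mb, with 39 keratin windows, and the bin from 98.5 to 99.5 Mb, with 19, had -2.62. The chromosome 15 bin, -3.73, was 0.19 from 101.5 to 102.5 Mb (26 keratin windows) and -5.56 from 100.5 to 101.5 Mb (21 keratin windows) with the shifted grid, and -5.14 to -1.47 leaving out each embryo. Single windows that changed sign were chr15:101909647-101913146 (1.75 in densely covered embryos; -2.62 to 1.10 leaving out each embryo), chr15:101912418-101915917 (-7.34 to 13.2), chr15:101933615-101937114 (-2.34; -4.91 to 15.1) and chr15:101388894-101392393 (-2.31; -1.73 to 2.10). The cause was not tested. Within controls, the Krt8/Krt18 windows stayed below the other keratin windows on average, from -12.6 to -7.87 leaving out each embryo. No paired analysis was possible because the groups share no number: controls run from 1 to 10, mutants from 11 to 20. Read depth is unknown, so the counting error behind single values cannot be given.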
